A study of Mus musculus with 8 samples.

Results

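ATP-sensitive K+ (KATP) channels join a pore-forming Kir6 subunit, encoded by Kcnj8 (Kir6.1) or Kcnj11 (Kir6.2), with a sulfonylurea receptor (SUR) encoded by Abcc8 (SUR1) or Abcc9 (SUR2). These 4 genes were chosen by gene symbol from the 54532 genes in the deposited read-count table. The set was put together with earlier results on the P5 to P12 difference in view, Kcnj11 and Abcc8 included. The differences of the 4 genes between the ages are therefore given as a description, with no test. The gene lists set beside them were also chosen with earlier results of these data known. Their p-values set a difference against the spread between pools and are not independent support. Enamel organs of first molars came from untreated C57BL/6 wt pups at P5 (secretory stage, n = 4 libraries, numbered 1, 3, 4 and 5) and at P12 (maturation stage, n = 4, numbered 1 to 4), and enamel organs of 5 pups were pooled for each library. Poly(A) RNA was sequenced, with total counts of 16574548 to 20262601 at P5 and 17588152 to 22013456 at P12.

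KATP channels close when ATP binds the Kir6 pore and open when the nucleotide-binding domains of the SUR sense ADP, so that they link the K+ conductance of a cell to its energy state. The pairing of Kir6.2 with SUR1 is best known from pancreatic beta cells and neurons, and the pairing of Kir6.2 with SUR2 from heart and skeletal muscle. Kir6.1 with SUR2 forms the KATP channel of vascular smooth muscle and pericytes, and Kcnj8 and Abcc9 are widely used as markers of pericytes. The study asked which K+ channels and transporters differ between secretory and maturation stage enamel organs.

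The labels name enamel organ cells, and the ameloblast markers Amelx and Odam were abundant in these libraries. RNA of vessels was present as well, although the labels call the cells epithelially derived. Pecam1, an adhesion molecule of endothelium, averaged 633 ± 59.9 normalized counts (SD, n = 4) in the P5 libraries, whereas its P12 mean was 1286 ± 52.6 (SD, n = 4). Fewer cells of a type and less RNA per cell cannot be told apart in such bulk samples. P5 library 5 stood apart in maturation genes, with Slc24a4 at 332 against 1581 to 2269 in the other P5 libraries. P12 library 4 stood apart in keratins of oral mucosa, with Krt13 at 510 against 5840 to 11240. For the subunits, fold changes and shares of the summed levels are given with and without these libraries. Single genes of the other lists are given with all libraries.

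The genes lie in 2 pairs on chromosomes 6 and 7 of GRCm38, all on the reverse strand. Kcnj8 (ENSMUSG00000030247) spans 142564837 to 142571614 on chromosome 6, and Abcc9 (ENSMUSG00000030249) spans 142587862 to 142702315, with 16247 bases between them. Kcnj11 (ENSMUSG00000096146) spans 46093953 to 46100764 on chromosome 7, and Abcc8 (ENSMUSG00000040136) spans 46104523 to 46180033, with 3758 bases between them. In GENCODE M21 the exons of Kcnj8 and Kcnj11 merge into 3 and 4 blocks and those of Abcc8 and Abcc9 into 38 and 41. No exonic base of Kcnj8, Kcnj11 or Abcc8 lies in another gene (0.0%). For Abcc9 1.89% of exonic bases are shared with 5330439B14Rik, which had at most 2 counts in any library. Counts are per gene, so the SUR2A and SUR2B splice forms of Abcc9 were not separated.

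RefSeq's promoter table for GRCm38.p6 held 2 of the 4 genes, Kcnj8 and Abcc9, the neighbours that were both higher at P12 in every library. The bases from 250 to 51 before each annotated start are shown 5′ to 3′ on the reverse strand, at chr6:142571665-142571864 for Kcnj8 and chr6:142702325-142702524 for Abcc9. Capitals mark every match to 8 motifs searched on both strands. These were the E-box bound by many helix-loop-helix factors, written CANNTG, and the GC box bound by Sp factors, written GGGCGG. The Notch effector RBPJ was searched as TGGGAA, and TEAD factors, which act in smooth muscle, as GGAATG. The other four were the TATA box (spelled TATAAA), the AP-1 site of Fos and Jun factors (spelled TGAGTCA), the CArG box and the MEF2 site.
Kcnj8: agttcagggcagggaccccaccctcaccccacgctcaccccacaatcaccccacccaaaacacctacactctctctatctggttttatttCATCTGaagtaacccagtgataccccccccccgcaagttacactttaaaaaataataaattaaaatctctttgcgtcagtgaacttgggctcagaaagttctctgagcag
Abcc9: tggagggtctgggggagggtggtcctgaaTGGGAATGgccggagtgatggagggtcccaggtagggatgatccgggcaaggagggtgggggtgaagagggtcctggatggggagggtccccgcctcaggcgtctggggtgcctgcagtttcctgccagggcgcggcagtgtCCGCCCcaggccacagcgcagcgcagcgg
Kcnj8 held an E-box, found in 59.0% of the 32851 promoter windows of this length. Abcc9 held a GC box (24.6% of windows) and an RBPJ site (17.9%) that overlaps a TEAD site (10.7%). No motif of this list was found in both windows, and the G and C content was 47.5% for Kcnj8 and 69.5% for Abcc9. These matches describe letters in the windows and were not tested as binding sites.

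Kcnj8, the Kir6.1 pore subunit, had 88, 85, 78 and 99 counts at P5 (libraries 1, 3, 4 and 5, the order kept throughout) against 240, 167, 176 and 164 counts at P12 (libraries 1 to 4). Normalized for library size and composition, these were 113, 95, 103 and 105 at P5 against 176, 141, 163 and 165 at P12. Every P12 library was above every P5 library. At P5 Kcnj8 averaged 104 ± 7.43 normalized counts (SD, n = 4). The P12 mean was 161 ± 14.7 (SD, n = 4), and the fitted log2 fold change was 0.63 with a standard error of 0.13.

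Kcnj11, the Kir6.2 pore subunit, was scarce at P5, with counts of 15, 23, 6 and 7, and had counts of 180, 182, 160 and 114 at P12. Its normalized counts were 19.3, 25.7, 7.91 and 7.41 at P5 against 132, 154, 148 and 114 at P12, so that the lowest P12 library was above the highest P5 library. Of the 4 genes it differed most between the ages, at means of 15.1 ± 8.96 (SD, n = 4) for P5 against 137 ± 17.7 (SD, n = 4) for P12, and its fitted log2 fold change was 3.17 with a standard error of 0.32. Only 2 of its P5 libraries reached 10 counts, so that it entered the fit through its P12 counts. Library 5, low in maturation genes, was among the lowest at P5, and library 4, low in oral mucosa keratins, was the lowest at P12. Kcnj11 was about as low in P5 library 4, at 7.91 against 7.41, where Slc24a4 was at 1581 against 332 in library 5. P12 library 4 had the highest Slc24a4 of its age, 23170 against 12520 to 16760. Without P5 library 5 and P12 library 4 the log2 fold change of Kcnj11 was 3.0. The part of either pool in the difference was not tested.

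Abcc8, the SUR1 receptor subunit, was near the limit of detection at both ages. It had 9, 21, 5 and 26 counts at P5 against 7, 14, 12 and 9 counts at P12, where a floor of 3 counts corresponds to a CPM of 0.136 to 0.181. The 95% exact Poisson interval ran from 1.62 to 11.7 counts for the lowest P5 library and from 17.0 to 38.1 for the highest, which covers counting error only. Normalized, these were 11.6, 23.5, 6.59 and 27.5 at P5 against 5.13, 11.8, 11.1 and 9.04 at P12, and the ages overlapped. Abcc8 averaged 17.3 ± 9.83 (SD, n = 4) in the P5 libraries, whereas its P12 mean was 9.28 ± 3.0 (SD, n = 4). Its fitted log2 fold change was -0.93 with a standard error of 0.46, with -0.62 without P5 library 5 and -1.19 without P5 library 4. The sign of this value was opposite to that of its neighbour Kcnj11.

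Abcc9, the SUR2 receptor subunit, was the most abundant of the 4 genes by count, with 166, 164, 194 and 243 at P5 against 920, 703, 614 and 682 at P12. Normalized counts were 213, 183, 256 and 257 at P5 against 675, 593, 569 and 685 at P12, without overlap. Abcc9 averaged 227 ± 35.7 (SD, n = 4) in the P5 libraries, whereas its P12 mean was 630 ± 57.9 (SD, n = 4). The fitted log2 fold change was 1.47 with a standard error of 0.12.

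All P12 libraries lay above all P5 libraries for 3 of the 4 subunits, Kcnj8, Kcnj11 and Abcc9, and for 26.0% of all genes tested. Of these 16440 genes, 28.8% were higher and 28.4% lower at P12 at an adjusted p-value under 0.05, or 57.2% in either direction, and no such call is made for the subunits. The median log2 fold change was 1.05 over the 4 subunits and 0.01 over all genes. Since the difference between the ages was known when the genes were chosen, nothing is read from these counts.

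**Figure D1:**
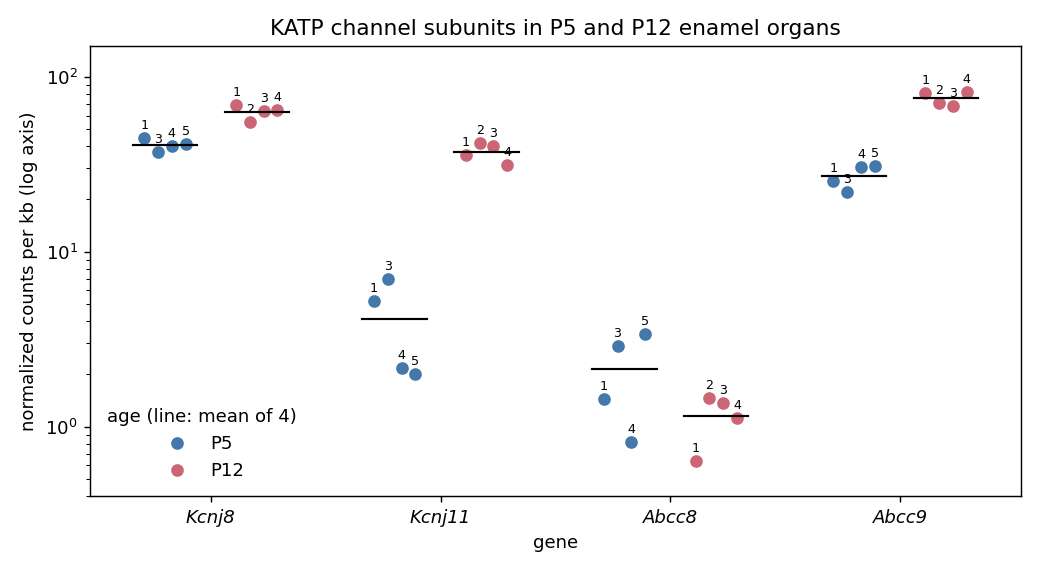
Normalized counts per kilobase (log axis) of the 4 KATP channel genes in each library, by age. Numbers beside the points are library numbers and lines are means of 4 libraries. Kcnj8, Kcnj11 and Abcc9 separate by age, with Kcnj11 the furthest apart (means 4.10 and 37.3), and the 2 ages of Abcc8 overlap.

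Levels of different genes were compared per kilobase of the gene length listed in the table. At P5 Kcnj8 came first at 40.8 ± 2.92 normalized counts per kilobase (SD, n = 4), followed by Abcc9 at 27.2 ± 4.27, Kcnj11 at 4.10 ± 2.44 and Abcc8 at 2.14 ± 1.22. Kcnj8 was above Abcc9 in all 4 P5 libraries, and Kcnj11 was above Abcc8 in libraries 1, 3 and 4 but not in library 5, so that these last neighbours did not differ beyond their spread. At P12 the order was Abcc9 at 75.3 ± 6.92, Kcnj8 at 63.3 ± 5.76, Kcnj11 at 37.3 ± 4.80 and Abcc8 at 1.15 ± 0.371. This order held in all 4 P12 libraries. Among the 14368 protein-coding genes tested, 54.7% had a higher level per kilobase than Abcc9 at P12, 59.1% than Kcnj8, 70.6% than Kcnj11 and 98.9% than Abcc8.

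Kcnj11 made up 10.6%, 15.8%, 5.06% and 4.67% of the summed Kir6 level per kilobase at P5. At P12 it made up 34.2%, 43.0%, 38.6% and 32.5% in libraries 1 to 4, more than in any P5 library. Abcc8 made up 5.31%, 11.7%, 2.6% and 9.97% of the summed SUR level at P5 and 0.781%, 2.02%, 1.98% and 1.35% at P12, less than in any P5 library. This share also moves with Abcc9, the larger part of the sum, and the Abcc8 counts themselves overlapped between the ages. Nearly all SUR transcript at P12 was thus Abcc9, beside a mixture of Kcnj8 and Kcnj11. Without P5 library 5 and P12 library 4, Kcnj11 made up 10.5% and 38.6% of Kir6 and Abcc8 made up 6.54% and 1.59% of SUR.

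The summed Kir6 level at P5 was 44.9 ± 3.24 normalized counts per kilobase (SD, n = 4), whereas at P12 it reached 100 ± 4.73 (SD, n = 4). The summed SUR level was 29.3 ± 4.22 and 76.4 ± 6.65. Their ratio stayed within overlapping ranges, at 1.26 to 1.84 in the P5 libraries and 1.16 to 1.5 in the P12 libraries. The ratio of Kcnj8 to Abcc9 was 1.74, 1.70, 1.32 and 1.34 at P5 against 0.857, 0.781, 0.942 and 0.790 at P12. Per kilobase, the order of these pair members was reversed in every P12 library. This rests on the division by length, since by undivided normalized counts Kcnj8 was below Abcc9 at both ages, with ratios of 0.402 to 0.53 at P5 and 0.238 to 0.287 at P12. The ratio of Kcnj11 to Abcc8 was 0.592 to 3.67 at P5 and 27.9 to 56.6 at P12.

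**Figure D2:**
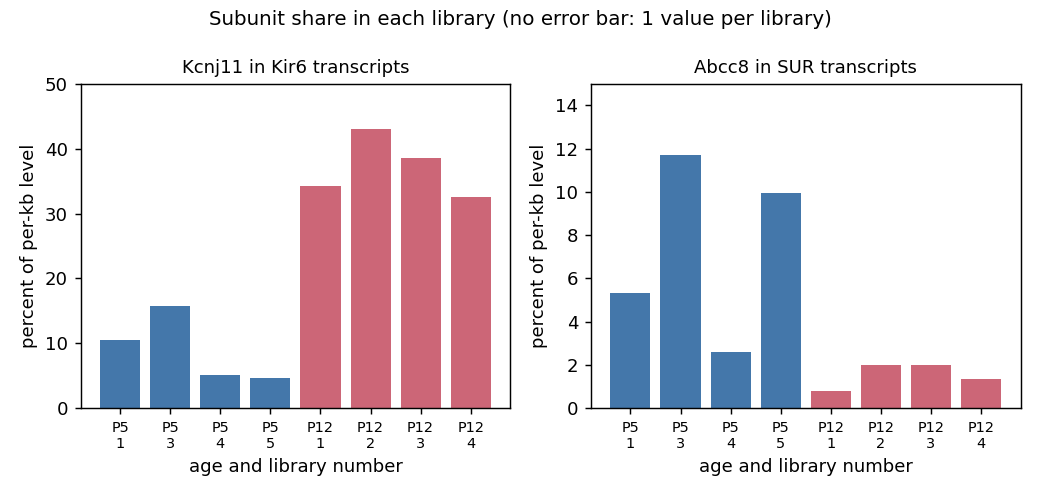
Share of Kcnj11 in the summed Kir6 level (left) and of Abcc8 in the summed SUR level (right), in percent of normalized counts per kilobase, with a bar for each library. Kcnj11 reaches at most 15.8% at P5 and at least 32.5% at P12, while Abcc8 is at most 2.02% at P12.

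The libraries of one age also differed among themselves. For Kcnj8 the spread of the counts was near counting error, with a chi-square per degree of freedom of 0.444 at P5 and 1.65 at P12. It was 4.62 and 2.43 for Kcnj11, 4.49 and 1.27 for Abcc8, and 4.89 and 5.97 for Abcc9. This scale sets the spread of separate pools against counting error, which separate pools commonly exceed, and nothing is read from it about single genes.

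Because Kcnj8 and Abcc9 are used as pericyte markers, their library profiles were set beside 3 genes of mural cells, the pericytes and smooth muscle cells of vessel walls. Pdgfrb, the receptor through which pericytes are recruited, had normalized counts of 342, 312, 327 and 369 at P5 and 1587, 1446, 1117 and 1106 at P12. Rgs5, a regulator of G protein signalling rich in pericytes, was at 2103, 1940, 2012 and 2077 and then at 5585, 5323, 5388 and 6296. Cspg4, which encodes the NG2 proteoglycan, was at 522, 642, 708 and 793 and then at 2167, 2637, 2084 and 2596. All 3 rose at P12, by 1.96 (standard error 0.12, adjusted p = 2.1e-07, edgeR quasi-likelihood test, Benjamini-Hochberg), 1.47 (standard error 0.07, adjusted p = 2.6e-08) and 1.83 (standard error 0.13, adjusted p = 3.8e-07) on the log2 scale. These 3 genes too were chosen with earlier results of these data known, so the p-values are not independent support.

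The log2 fold change of Abcc9 equalled that of Rgs5, at 1.47, and that of Kcnj8 was lower than those of all 3 mural genes. Per 100 normalized counts of Rgs5 there were 11.2 ± 1.62 of Abcc9 (SD, n = 4) at P5 and 11.2 ± 0.654 at P12. For Kcnj8 there were 5.11 ± 0.201 at P5 and 2.86 ± 0.269 at P12, with all P12 libraries (2.62 to 3.15) below all P5 libraries (4.90 to 5.38). Per 100 counts of Pdgfrb, Kcnj8 was at 30.8 ± 1.97 and 12.6 ± 2.56, and Abcc9 at 67.3 ± 8.59 and 49.1 ± 9.59. Kcnj11 was higher against Rgs5 as well, at 0.748 ± 0.462 and 2.45 ± 0.479. Abcc9 therefore kept its mean proportion to Rgs5 alone of the 3 mural genes. Against Pdgfrb and Cspg4 its means were lower at P12, with overlap between the ages (34.5 ± 5.25 and 26.8 ± 3.55 for Cspg4). Kcnj8 was lower at P12 against all 3 (16.1 ± 3.81 and 6.91 ± 1.3 for Cspg4). Kcnj11 was higher against all 3 (2.44 ± 1.64 and 5.86 ± 1.12 for Cspg4). The part of a change in mural cells in these values was not tested.

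Likeness of whole profiles was measured as the root mean square difference of log2(normalized count + 1), after each gene's own mean over the 8 libraries was subtracted. By this measure Rgs5 ranked 5 of 16436 genes for Abcc9, at 0.138 against a median of 0.797, and Cspg4 and Pdgfrb ranked 202 and 449. For Kcnj8 the same genes ranked far lower, Rgs5 at 7900, Cspg4 at 12243 and Pdgfrb at 12508. With the mean of each age subtracted instead, so that the age difference no longer counts, Rgs5 ranked 371 for Kcnj8 and 744 for Abcc9, and Pdgfrb and Cspg4 ranked between 3897 and 10963 for both. Of these 3 genes Rgs5 was thus near Kcnj8 only with the age means subtracted. This distance is small between genes that vary little within an age, as did Rgs5 and Kcnj8 (pooled SDs of 0.0864 and 0.119 on the log2 scale). Their rank therefore does not show that they varied together. Over all 8 libraries the distance is set largely by the age difference, a log2 fold change of 1.47 for both Abcc9 and Rgs5. For Kcnj11 the 3 mural genes ranked between 460 and 899 over all libraries and between 8456 and 13623 within the ages.

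**Figure D3:**
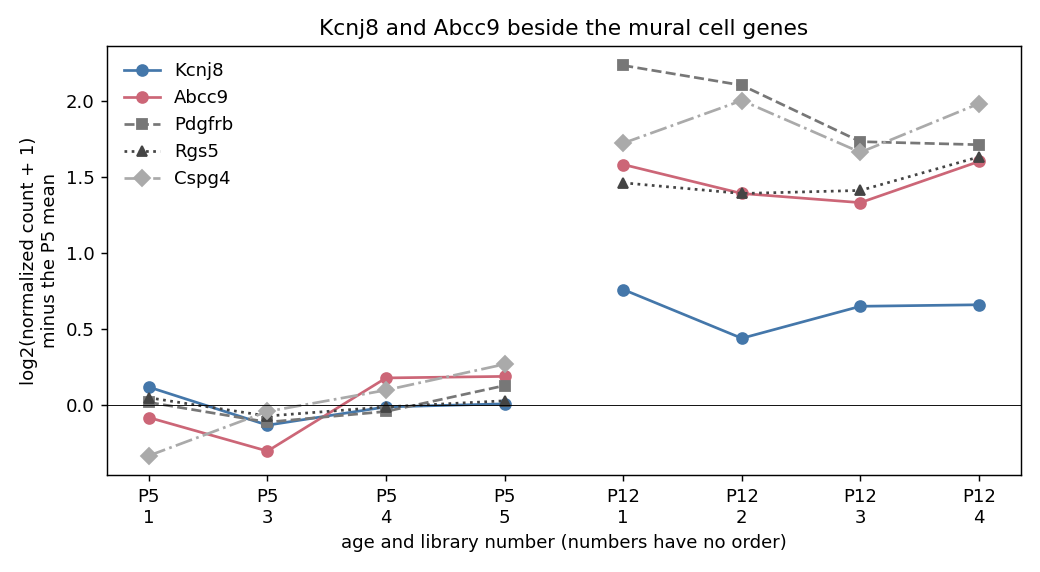
Log2(normalized count + 1) of Kcnj8, Abcc9 and the mural cell genes Pdgfrb, Rgs5 and Cspg4 in each library, minus the mean of the 4 P5 libraries. At P12 Abcc9 (1.33 to 1.60) lies beside Rgs5 (1.39 to 1.63), below Pdgfrb and Cspg4, and Kcnj8 (0.44 to 0.76) lies below all of them.

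The nearest profile to Abcc9 was that of Plvap, which encodes the diaphragm protein of fenestrated endothelium, at a root mean square difference of 0.0816. Slfn5 (0.129) and Igfbp7 (0.132), a secreted IGF-binding protein, followed. Nearest to Kcnj8 were Sntb2 (0.0815), a syntrophin, Nkiras2 (0.0839) and Nacc2 (0.0851). Nearest to Kcnj11 were Il13ra2 (0.315), the decoy receptor of interleukin 13, Ahnak2 (0.335) and Sdcbp2 (0.340), with log2 fold changes of 2.93 to 3.50. Nearest to Abcc8 were Gm17029 (0.232), 4930513N10Rik (0.242) and Aipl1 (0.336), of which the first 2 are annotated as antisense genes, for which the use of strand in the counting is not known. Within the ages the nearest were Adgrg1, Cntn3 and Ubox5 for Abcc9 (0.0419 to 0.0650), Brix1, Plpp5 and Mavs for Kcnj8 (0.0435 to 0.0475), Herc6, Gm9989 and Gm16618 for Kcnj11 (0.175 to 0.185), and Vgll2, 4930513N10Rik and Gm17029 for Abcc8 (0.170 to 0.228). Plvap was also a member of the endothelial list, and no other gene named here belonged to a list.

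Markers of other cells in which KATP channels are known were counted beside the subunits. Over all 16440 genes tested, 28.8% were higher and 28.4% lower at P12, and the counts of each list stand beside these shares. With total count scaling 8885 of all genes were higher and 2330 lower. Of 12 further mural genes, 7 rose, 1 fell and 4 did not pass the test, with a median log2 fold change of 0.64 against 0.01 for all genes and summed levels of 3321 to 3819 at P5 and 4404 to 5284 at P12. Ndufa4l2 rose by 1.91 (adjusted p = 8.3e-06, edgeR quasi-likelihood test) and Notch3, a receptor needed for vascular smooth muscle, by 1.04 (adjusted p = 1.8e-04). Mcam, the most abundant, was at -0.14 (adjusted p = 0.16), and Heyl, a target of Notch signalling, fell by 0.52 (adjusted p = 0.012), a call that was lost with total count scaling. Without P12 library 4 the list had 2 falls. Of 10 endothelial genes, 9 rose, with summed levels of 3899 to 4823 at P5 and 7656 to 8263 at P12. Among them Plvap rose by 1.40 (adjusted p = 2.1e-06), Esam by 1.10 (adjusted p = 1.0e-05) and Kdr, the main VEGF receptor, by 1.07 (adjusted p = 3.5e-06). Cldn5, the endothelial claudin, was at 0.06 (adjusted p = 0.78). The summed levels of both lists were thus higher in every P12 library, as were Kcnj8 and Abcc9, while 5 of the 12 further mural genes and 1 of the 10 endothelial genes did not rise. With total count scaling the further mural list had 9 rises and 0 falls, and all 10 endothelial genes rose. The part of these cells in the subunits' values was not tested.

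Skeletal muscle, where Kir6.2 is known to pair with SUR2, gave no common direction, beside 28.8% higher and 28.4% lower over all genes tested. Of 12 muscle genes 3 rose, 5 fell and 4 did not pass, but only 3 fell without P5 library 3, P5 library 4 or P12 library 1, and with total count scaling. The summed levels overlapped, at 962 to 1632 at P5 and 933 to 1778 at P12. The adult fast myosins Myh1 and Myh4 rose by 1.93 (adjusted p = 8.3e-05, edgeR quasi-likelihood test) and 1.91 (adjusted p = 2.3e-04), while the perinatal myosin Myh8 fell by 2.32 (adjusted p = 2.2e-04) and the actin gene Acta1 by 1.34 (adjusted p = 9.6e-05). P12 library 4, the lowest of its age for Kcnj11, had the highest summed muscle level, 1778 against 933 to 1246, of which Myh4 made up 1111. Its muscle genes did not share this place. Myh1, Atp2a1 and Pvalb were also highest there, while Tnni2 (24.1 against 44.0 to 62.4), Mylpf (69.3 against 82.9 to 89.0) and Mb were lowest. The part of muscle in the Kcnj11 counts was not tested.

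Neuronal genes, of cells where Kcnj11 and Abcc8 are known to occur together, were lower at P12, with 10 of 12 falling and none rising. Among all genes tested 28.4% fell and 28.8% rose. Their summed level was 3839, 5810, 4177 and 6107 at P5 against 1349 to 1642 at P12. P5 libraries 3 and 5, with the higher neuronal sums, were also those with the higher Abcc8 counts, 21 and 26 against 9 and 5. At P12 the orders differed. Library 4 had the highest neuronal sum, 1642, with 9 Abcc8 counts, and library 2 had the most Abcc8 counts, 14, at a sum of 1413. Library 1 was lowest in both, at 1349 and 7 counts. The neurofilament genes Nefm and Nefl fell by 4.58 (adjusted p = 2.1e-05, edgeR quasi-likelihood test) and 3.69 (adjusted p = 6.7e-04), and Tubb3, a neuronal tubulin, by 1.68 (adjusted p = 5.0e-07). Stmn2, also abundant, was at -0.54 (adjusted p = 0.075). The part of nerve in the Abcc8 counts was not tested.

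Of 12 genes of pancreatic beta and endocrine cells, 5 were at or under the floor of 3 counts in every library, the hormone genes included. Ins1, Ins2, Iapp and Pdx1 had 0 counts in all 8 libraries, which allows a CPM of up to 0.181. The beta cell factors Mafa, Neurod1 and Isl1 were above the floor, Mafa with 8 to 85 counts a library and log2 fold change 0.16 (adjusted p = 0.81). Of the list 5 genes could be tested, and 2 of these fell, beside 28.4% of all genes tested. They were Pcsk2, a prohormone convertase, by 1.92 (adjusted p = 3.9e-05, edgeR quasi-likelihood test) and Chga, a granule protein, by 2.76 (adjusted p = 0.0065). In P5 library 5, where Abcc8 was highest, Pcsk2 was also highest, at 248 against 117 to 160, as was the low Pcsk1. Mafa (8.47 against 45.8 to 57.9) and Neurod1 (28.6 against 41.1 to 55.9) were lowest there, and Chga and Isl1 lay between. The list thus did not share the order of Abcc8, and the part of endocrine cells in its counts was not tested.

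Of 10 genes of oral mucosa 9 were tested and all 9 rose, beside 28.8% of all genes tested, and 7 rose with limma-voom. Summed levels were 2442 to 3107 at P5, 40450 to 57090 in P12 libraries 1 to 3 and 18070 in P12 library 4. For Krt4 and Krt1 the ages overlapped, since P12 library 4 was not above every P5 library. Krt6b rose by 8.28 (adjusted p = 2.0e-06, edgeR quasi-likelihood test), Krt24 by 8.02 (adjusted p = 5.4e-08) and Krt10 by 4.62 (adjusted p = 3.4e-07), and Trim29, the most abundant, by 2.58 (adjusted p = 1.1e-09). Kcnj11 was at 114 in P12 library 4 and at 132 to 154 in the other P12 libraries, and Kcnj8 and Abcc9 were not lowest there. Of the 10 ameloblast genes, 6 rose and 4 fell, with Odam up by 4.57 (adjusted p = 2.8e-07), Wdr72 up by 3.97 (adjusted p = 4.9e-08), Ambn, which fell by 2.57 (adjusted p = 1.5e-05), Amelx, which fell by 5.74 (adjusted p = 2.0e-06) and Enam, which fell by 9.95 (adjusted p = 2.4e-08).

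Enzymes that set or buffer the ATP and ADP near KATP channels moved in both directions, with 6 of 12 rising, 3 falling and 3 not passing. Their median log2 fold change was 0.44, and 28.8% of all genes tested rose and 28.4% fell. With total count scaling 8 rose and 2 fell (median 0.81), and without P12 library 4 7 rose and 4 fell. The rises were largest for the glycolytic enzymes Ldha, at 2.13 (adjusted p = 1.9e-09, edgeR quasi-likelihood test), and Pkm, at 1.30 (adjusted p = 6.6e-08), and Gapdh rose by 1.06 (adjusted p = 1.5e-06). Ckb, the brain-type creatine kinase, fell from 18740 ± 2609 (SD, n = 4) to 4634 ± 1215, by 2.02 on the log2 scale (adjusted p = 2.4e-06), and Hk2, a hexokinase, fell by 0.71 (adjusted p = 8.8e-05).

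Among genes of proteins known to bind or regulate the channel, 3 of 11 rose, 5 fell and 3 did not pass, with a median of -0.06. Since 28.8% of all genes tested rose and 28.4% fell, nothing is read from these counts. Prkaa2, a catalytic subunit of AMP-activated kinase, rose by 1.17 (adjusted p = 8.7e-05, edgeR quasi-likelihood test) and Cav1, the caveolin that holds vascular KATP channels in caveolae, by 0.98 (adjusted p = 6.8e-05). Ank2, the ankyrin that anchors Kir6.2, fell by 1.45 (adjusted p = 5.3e-07) and Rapgef4, a cAMP sensor that binds SUR1, by 0.65 (adjusted p = 0.0086). Usp7 fell by 0.30 (adjusted p = 0.0015) and Prkaca by 0.20 (adjusted p = 0.033). With total count scaling this list had 6 rises and 1 fall, and the calls of Rapgef4, Usp7 and Prkaca were lost, with Usp7 at 0.07 and Prkaca at 0.17.

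The SUR genes belong to the Abcc family of ATP-binding cassette proteins, whose other members are mostly exporters. Of 9 such genes, Cftr included, 6 were tested and 3 rose, beside 28.8% of all genes tested, with a median of 0.39. Cftr, the chloride channel of the family, rose by 2.39 on the log2 scale (adjusted p = 1.6e-06, edgeR quasi-likelihood test), with 656 ± 65.6 normalized counts for P5 against 3441 ± 1114 for P12 (SD, n = 4 each). Abcc3 rose by 0.58 (adjusted p = 0.022), and its adjusted p reached 0.16 among the alternatives. Abcc5, also abundant, was at 0.04 (adjusted p = 0.65) and at 0.41 (adjusted p = 6.5e-04) with total count scaling, and this scaling brought the rises of the list to 5. Without P5 library 1 there were 5 rises and 1 fall, and without P5 library 4 there were 4 rises and 1 fall. Abcc9 lay between Cftr and the other tested members in log2 fold change, and Abcc8 lay below all of them.

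The genes next to the pairs did not share one direction. On chromosome 6, Ldhb below Kcnj8 was at -0.09 (adjusted p = 0.65, edgeR quasi-likelihood test) and Cmas above Abcc9 fell by 0.34 (adjusted p = 0.0038), but was at 0.03 with total count scaling. On chromosome 7, Nomo1 below Kcnj11 was at 0.09 (adjusted p = 0.38) and at 0.47 (adjusted p = 0.0014) with total count scaling, and Ush1c above Abcc8 fell by 2.76 (adjusted p = 1.1e-04), from 31.3 ± 9.64 (SD, n = 4) to 4.53 ± 1.93.

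**Figure D4:**
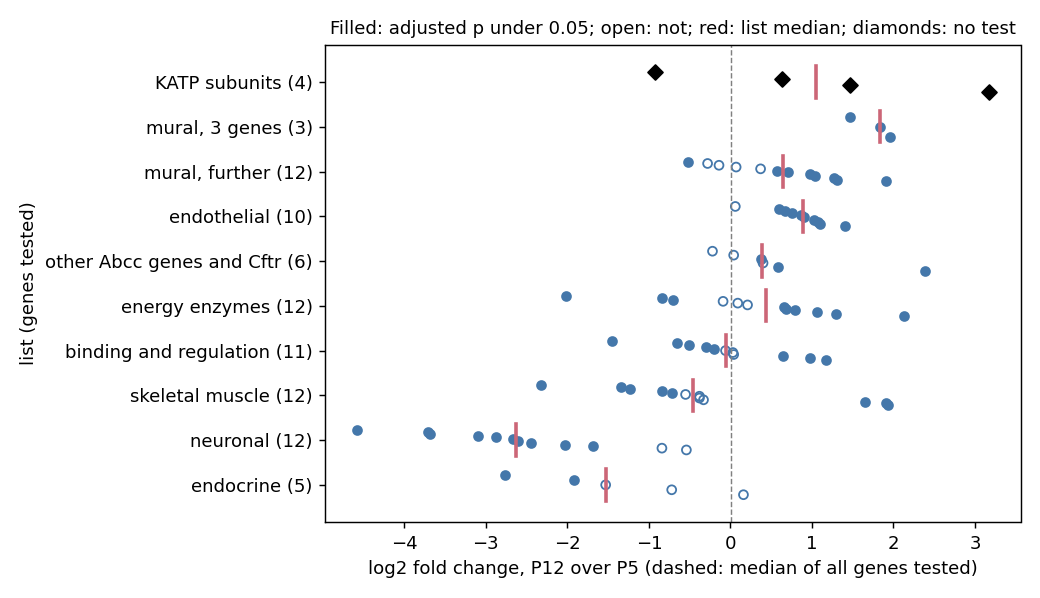
Log2 fold change of P12 over P5 from the edgeR fit for the KATP channel subunits (diamonds, no test) and the tested genes of other lists. The oral mucosa and ameloblast lists are not drawn, and they held larger changes, such as Krt6b at 8.28 and Enam at -9.95. Filled circles have an adjusted p under 0.05, red lines are list medians and the dashed line is the median of all genes tested (0.01). The subunits run from -0.93 (Abcc8) to 3.17 (Kcnj11), and the neuronal genes all lie to the left.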

How the data were processed

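RNA-seq was performed on 8 libraries, each a pool of 5 pups, with 4 at each age. The authors deposited raw read counts per gene, as whole numbers without normalization, with gene lengths and coordinates. The submitters' processing notes name CASAVA and mm39, but the coordinates of the 4 subunits are those of GENCODE M21 for GRCm38, as are those of 53462 of 54532 genes. The aligner, the counting program and its use of strand are not given in the sources used here. Columns were matched to samples by title.

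Counts were filtered by filterByExpr, scaled by TMM and tested by glmQLFTest after glmQLFit, all in edgeR 4.0.16 (R 4.3.3) with age as the only term, with Benjamini-Hochberg adjustment over 16440 genes and a threshold of 0.05. The standard error is the log2 fold change divided by the square root of its F statistic. Normalized counts are counts over the effective library size, scaled to its mean of 19006280. Levels per kilobase use the listed gene length. Profiles use a pseudocount of 1. The tests were tried on simulated counts with known changes. The spread of counts was given as chi-square against the effective library sizes, divided by 3 degrees of freedom. Poisson intervals are exact at 95% and, like the floor of 3 counts, cover counting error only, since no molecular identifiers are stated.

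Alternatives were DESeq2 1.42.0, which the paper names, limma-voom (limma 3.58.1), other scalings and filters, each library left out in turn, and the replicate number as a block. The fit without both P5 library 5 and P12 library 4 was added after seeing the data. The members and gene lists were chosen with earlier results of these data known. Named from each list were up to 2 called genes with the largest rise, up to 2 with the largest fall (mean normalized count of at least 50) and the 2 most abundant, with the chromosomal neighbours and the 3 nearest profiles of each subunit. Slc24a4, Krt13, Krt4, Krt1, Tnni2, Mylpf, Mb, Atp2a1, Pvalb and Pcsk1 were named after their values were seen. So were Abcc6, Abcc2, Cldn5, Mafa, Neurod1, Isl1 and the beta cell genes at 0. Counts and summaries used numpy 2.4.6, scipy 1.17.1 and pandas 2.3.3, and plots matplotlib 3.10.9. The p-values set a difference between the ages against the spread between these pools, and the spread between single pups is not seen.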

Additional observations from a re-analysis of the deposited data

How the results depend on the processing

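Over the 18 alternative fits the log2 fold changes of the 4 subunits kept their sign wherever a value was given. Total count scaling shifted the median of all genes to 0.38 and moved Kcnj8 to 1.01 and Abcc9 to 1.84, which are 0.63 and 1.46 above that median. It also changed the calls over all genes to 8885 higher and 2330 lower, from 4735 and 4676. With any single library left out, Kcnj8 was at 0.58 to 0.69, Kcnj11 at 2.92 to 3.57, Abcc8 at -1.19 to -0.62 and Abcc9 at 1.37 to 1.53, and 8708 to 10030 genes were called. For Abcc8, with 5 to 26 counts in a library, the value was -0.93 with a standard error of 0.46 over all libraries. It moved most with single P5 libraries, to -0.62 without library 5 and to -1.19 without library 4. Without P5 library 5 and P12 library 4 together, a setting chosen after seeing the data, Kcnj8 was at 0.63, Kcnj11 at 3.0, Abcc8 at -0.62 and Abcc9 at 1.5. Kcnj11 and Abcc8 had no value with at least 10 counts required in every library, and Abcc8 had none over the 6 libraries of the block.

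A replicate block could be fitted for 6 libraries, those numbered 1, 3 and 4. With it Kcnj8 was at 0.70, Kcnj11 at 2.92 and Abcc9 at 1.57, and 7710 genes were called, against 0.70, 2.87, 1.57 and 8117 without the block. The block turned no sign of a subunit that had a value. Same-numbered libraries had correlations of deviations across genes of 0.0447, 0.00514 and -0.0361, and pairs of unlike number ran from -0.0679 to 0.0618. The labels give no pairing, and these values over all genes cannot show whether same-numbered libraries were handled together. A log2 fold change of at least 1 beside the adjusted p left 3541 genes called instead of 9411. Without division by length, the ratio of Kcnj8 to Abcc9 was 0.464 instead of 1.52 at P5 and 0.257 instead of 0.843 at P12, so that the order was the same at both ages. Of 101 tested list genes, 78 were called, with 67 where at least 10 counts were required in every library (among them 5 of 7 neuronal genes tested), 77 with the replicate block and 73 without it in the same libraries. The count was 75 to 85 with any single library left out and 78 to 84 under the other settings.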

Other observations

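Among the Abcc genes too low to test, Abcc6, known for a calcification disorder when lost, had 0, 2, 1 and 1 counts in P5 libraries but 23, 17, 12 and 7 counts in P12 libraries, without overlap. Abcc2, a hepatic exporter, had at most 3 counts in any library. Dixon's ratio for 4 values marked no library as distant in any of 14 combinations of age with a subunit, Pdgfrb, Rgs5 or Cspg4.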
